A study of Mus musculus with 30 samples.

Results

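A set of 10 genes of the endoplasmic reticulum (ER) and amino acid stress responses was followed in mouse macrophages and podoplanin-positive (PDPN+) stromal cells. They were taken by symbol, and all 10 were found among the 50764 gene models of the deposited tables. The 5 ER chaperone genes were Hspa5, Hsp90b1, Pdia4, Sdf2l1 and Creld2. The 5 ATF4-type genes, so called here because the transcription factor ATF4 is known to drive them or is itself one of them, were Ddit3, Trib3, Atf4, Asns and Chac1. PolyA RNA was sequenced in 30 libraries that form 10 groups of 3, and each labelled batch (mbb336, mbb339 and mbb340) holds 1 library of every group. The macrophages were sorted on F4/80 and were either cells of a peritoneal lavage analysed ex vivo, cells cultured alone, cells given ATRA (all-trans retinoic acid, 1 uM), cells from co-culture with PDPN+ cells, cells from transwell culture, or cells with 1 uM BMS493. The PDPN+ cells, labelled as omental, were cultured alone, in co-culture, in transwell culture or with 1 uM BMS493. ATRA activates the retinoic acid receptors and BMS493 is an inverse agonist of them. Whether macrophages and PDPN+ cells were together under BMS493 is not stated in the labels, so BMS493 was set against both the co-culture and the cells alone. Strain, age and genotype of the mice are not stated there, and nothing says that the replicates are separate animals or cultures. The p-values therefore measure only the spread between these libraries, which may be technical.

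Proteins that enter the ER fold with the help of chaperones, and cells match chaperone supply to the folding load through the unfolded protein response. Its sensors IRE1 (gene Ern1) and ATF6 raise chaperone genes through the factors XBP1 and cleaved ATF6, which are known to act at the ER stress response element. The third sensor, PERK (gene Eif2ak3), slows translation and favours production of ATF4. The kinase GCN2 (gene Eif2ak4) reaches the same factor when amino acids are short, so ATF4 target genes can move with or without the chaperones. ATF4 acts with C/EBP partners at composite elements near genes of amino acid synthesis, transport and tRNA charging.

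The promoters of the 10 genes were read in RefSeq windows of 300 bases (GRCm38.p6), from 250 bases before to 50 bases after each start, and all 10 genes matched. The ER stress response element was searched as CCAAT, any 9 bases, CCACG, on either strand. It was present in 3 of 5 chaperone windows (Hspa5, Hsp90b1, Creld2), in 0 of 5 ATF4-type windows and in 0.119% of all 32851 windows. The C/EBP-ATF composite element was searched as TGATG, any base, AA, on either strand. It was present in 0 of 5 chaperone windows, in 3 of 5 ATF4-type windows (Trib3, Asns, Chac1) and in 3.97% of all windows. TGACGTGG, the unfolded protein response element, lay in 0.676% of all windows and in no window of the 10 genes, as did the second ER stress element, ATTGG, any base, CCACG (0.0365%). A match is a description of the letters and does not show that a factor binds. Pdia4, Sdf2l1, Ddit3 and Atf4 had no match to any element searched. The ATF4-type genes were grouped by their known link to ATF4, so the split of motifs is no independent result. The stretches around the matches are printed 5′ to 3′ on the gene's strand, with the matched element in capitals.
Hspa5 (chr2:34772000-34772068, + strand): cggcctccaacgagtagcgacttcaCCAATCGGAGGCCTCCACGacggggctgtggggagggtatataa
Hsp90b1, farther copy (chr10:86705613-86705681, - strand): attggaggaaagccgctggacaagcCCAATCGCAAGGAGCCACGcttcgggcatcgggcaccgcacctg
Hsp90b1, nearer copy (chr10:86705508-86705576, - strand): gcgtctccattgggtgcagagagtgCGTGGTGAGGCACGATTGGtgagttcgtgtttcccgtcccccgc
Creld2 (chr15:88819495-88819563, + strand): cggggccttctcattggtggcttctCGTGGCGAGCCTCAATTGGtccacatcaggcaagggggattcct
Asns (chr6:7693200-7693257, - strand): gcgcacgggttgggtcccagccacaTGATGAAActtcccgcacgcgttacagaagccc
Chac1 (chr2:119351024-119351081, + strand): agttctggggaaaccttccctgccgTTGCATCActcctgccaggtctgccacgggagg
Trib3 (chr2:152344034-152344071, - strand): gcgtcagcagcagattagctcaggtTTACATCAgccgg
The element of Hspa5 spanned bases -65 to -47 from the start, that of Creld2 -126 to -108, and those of Hsp90b1 -212 to -194 and -107 to -89. The element of Asns spanned -23 to -16 and that of Chac1 -193 to -186, while that of Trib3 lay at bases 14 to 21 after the start. These positions count from the RefSeq start, which differs from the gene start of the GENCODE annotation given next: the Hspa5 start of RefSeq lies 120 bases inside the GENCODE gene and that of Trib3 28 bases upstream of it. The Creld2, nearer Hsp90b1, Chac1 and Trib3 elements read in the opposite orientation.

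In the GENCODE annotation of GRCm38, Hspa5 lies at chr2:34771970-34777547 (+ strand), Hsp90b1 at chr10:86690209-86705509 (-), Pdia4 at chr6:47796141-47813430 (-), Sdf2l1 at chr16:17130138-17132383 (-) and Creld2 at chr15:88819646-88826683 (+). Ddit3 lies at chr10:127290774-127296288 (+), Trib3 at chr2:152337422-152344032 (-), Atf4 at chr15:80255184-80257541 (+), Asns at chr6:7675169-7693254 (-) and Chac1 at chr2:119351229-119354381 (+). Ddit3 overlaps Mars and Gm4189 on the other strand, and Hsp90b1 overlaps 1810014B01Rik. The strand setting of the counting is not stated, so reads shared with these neighbours cannot be told apart for Ddit3 and Hsp90b1.

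Libraries held 29350158 to 54099085 counts. Levels are CPM, the gene count scaled to the TMM-adjusted library total. A gene was called at a Benjamini-Hochberg adjusted p under 0.05 in edgeR's quasi-likelihood test, which is the source of every adjusted p here unless another tool is named. The summed level of 8 macrophage markers was 55600 to 227000 CPM in macrophage libraries and 85.1 to 136 CPM in PDPN+ cells cultured alone. The summed level of 8 fibroblast markers was 6930 to 40200 CPM in PDPN+ libraries and 0.781 to 10.0 CPM in macrophages ex vivo, where Lum was at 0. The 6 mesothelial markers summed to 1510 to 2540 CPM in PDPN+ cells cultured alone and to 2.65 to 1040 CPM in those from co-culture and BMS493 cultures. The macrophage sum was 1580 to 3650 CPM in PDPN+ cells with BMS493 and 1600 to 2320 CPM in co-culture. In macrophages the fibroblast sum was 570 to 842 CPM with BMS493, 267 to 1170 CPM in co-culture and 3.33 to 96.8 CPM alone. BMS493 against alone thus differs in these marker transcripts as well as in BMS493, and their parts cannot be told apart. PDPN+ alone replicate 3 and PDPN+ transwell replicate 1 stood apart from the other 10 PDPN+ libraries. They correlated with each other at r = 0.937 and with the others at 0.575 to 0.831 (log2 CPM across 8893 genes, a description). The 10 others correlated among themselves at 0.714 to 0.969, so these ranges overlapped. Mitochondrial transcripts of alone replicate 3 and transwell replicate 1 were at 23300 to 27000 CPM against 4520 to 9950 CPM in the 10 others. The fitted comparisons that use these libraries are also given without them.

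Across the 30 libraries Hspa5 spanned 500.5 to 2828 CPM, Sdf2l1 27.4 to 310 CPM and Creld2 25.5 to 137 CPM. Asns spanned 0.564 to 505 CPM and Trib3 0.157 to 129 CPM, a wider ratio from lowest to highest. On the authors' size-factor-adjusted RPKM scale, which is per transcript length, Hspa5 was at 580, 450 and 756 in the macrophages ex vivo. On that scale, Asns, the enzyme that makes asparagine, was at 0.268, 1.24 and 0.662 in the same libraries. In PDPN+ co-culture libraries Hspa5 was at 382, 516 and 533 and Asns at 132, 198 and 219 on that scale. The 2 levels were thus far apart in macrophages ex vivo and much closer in PDPN+ co-culture. In PDPN+ cells alone Hspa5 was at 385, 434 and 192 and Asns at 63.0, 63.5 and 73.8 on that scale.

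**Figure D1:**
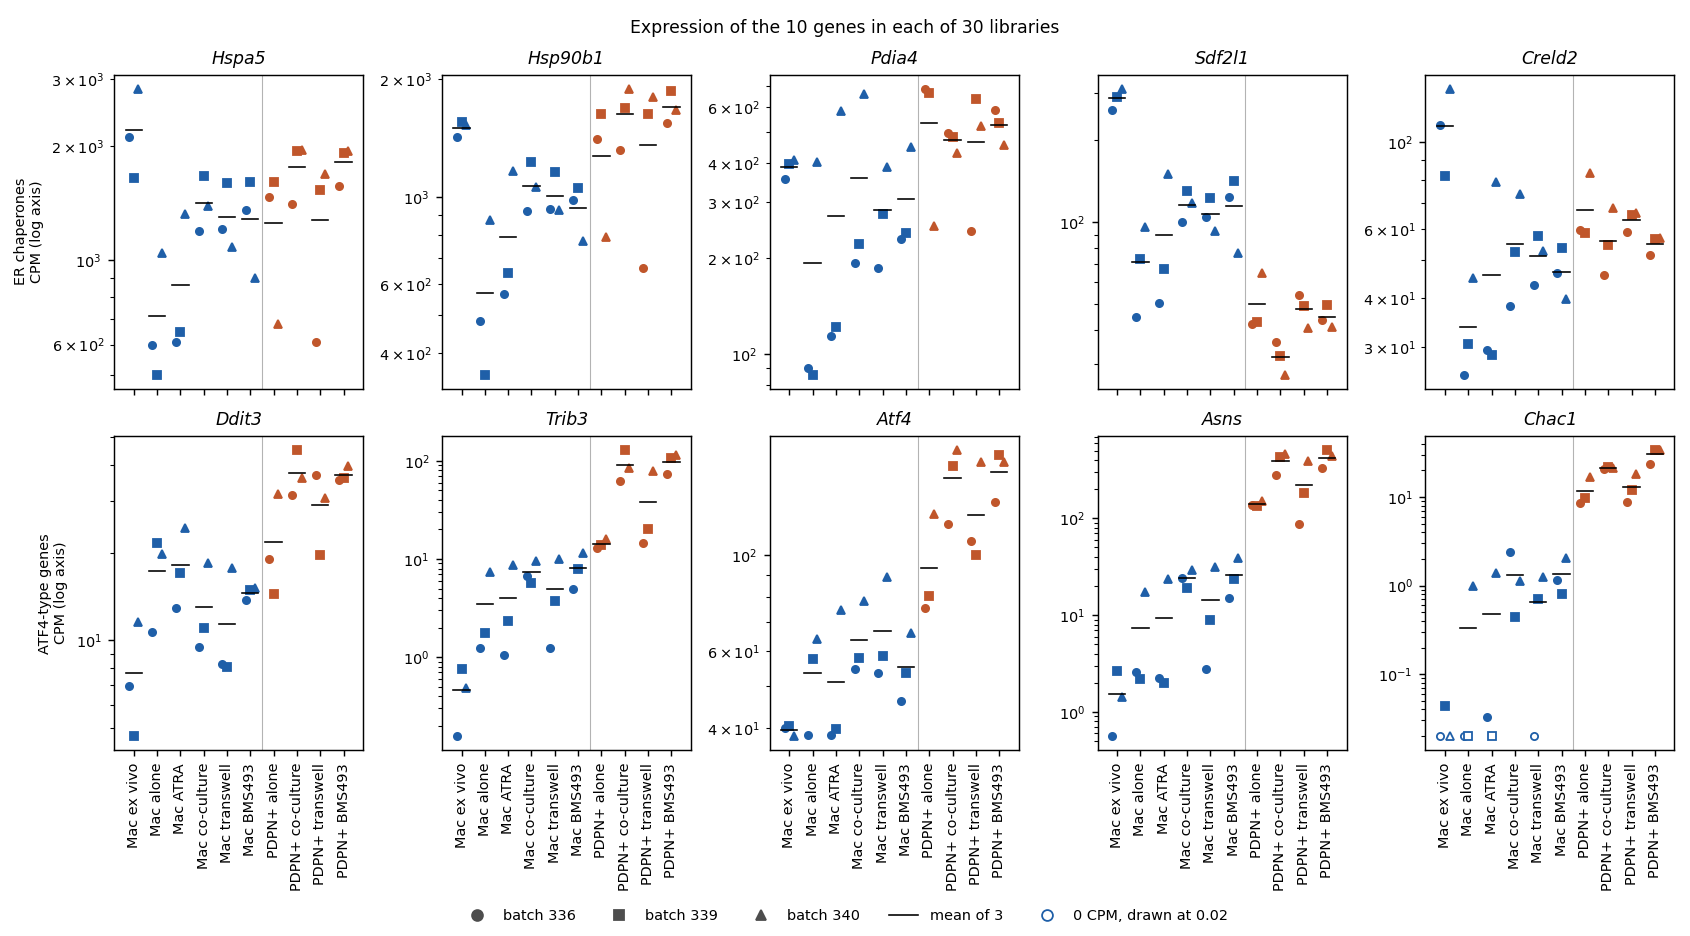
Each panel shows 1 gene, with CPM on a log axis and the 10 groups along the horizontal axis; a point is 1 library, its shape gives the batch, the line is the mean of 3, and macrophages are blue and PDPN+ cells orange. Sdf2l1 was highest in all 3 macrophage ex vivo libraries (259 to 310 CPM), while Asns lay between 87.4 and 505 CPM in PDPN+ cells and at most at 39.0 CPM in macrophages; the Chac1 mean ex vivo falls below the axis.

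Chaperones were lower in macrophages cultured alone than ex vivo. Of the 5, 4 (Hspa5, Hsp90b1, Sdf2l1 and Creld2) fell, and 1 of the 5 ATF4-type genes, Trib3, rose. Across all 17774 genes tested in this comparison, 17.8% were called, 8.5% lower and 9.31% higher. The median log2 change was -1.62 over the 5 chaperones and 2.23 over the 5 ATF4-type genes, against 0.08 over all genes. The 2.23 is the value of Asns, which was not called, and the 5 include Chac1 with its 2 counts ex vivo. Without batch mbb340 the ATF4-type changes were 1.69 (Trib3), 1.49 (Ddit3), 0.58 (Asns), 0.28 (Atf4) and -2.90 (Chac1). The chaperone changes were -1.76 to -2.20 in that fit. The groups did not overlap for 5 of the 10 genes, against 33.2% of all genes. Fewer cells of a type and less RNA per cell cannot be told apart in such sorted bulk samples.

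Hspa5 encodes BiP, the main ATP-driven chaperone of the ER and the regulator that holds its stress sensors inactive. It was at 2118, 1651 and 2828 CPM ex vivo and at 598, 500 and 1048 CPM in macrophages cultured alone. The groups did not overlap, and Hspa5 was 3.07-fold lower in culture (log2 -1.62 ± 0.34 SE, adjusted p = 0.00417). Hsp90b1, the ER member of the HSP90 family, was at 1426, 1551 and 1531 CPM ex vivo and at 482, 353 and 877 CPM alone. All 3 cultured libraries lay below the 3 ex vivo ones, and the gene was 2.64-fold lower (log2 -1.40 ± 0.30 SE, adjusted p = 0.00431). Sdf2l1, a cofactor of BiP that works with DNAJB11, was at 259, 290 and 310 CPM ex vivo and at 44.7, 73.4 and 96.1 CPM alone. This was the largest fall of the 5 chaperones (4.003-fold, log2 -2.00 ± 0.35 SE, adjusted p = 0.00108). Creld2, a protein of the ER that is raised by ER stress, was at 111, 81.8 and 137 CPM ex vivo and at 25.5, 30.4 and 45.0 CPM alone, 3.26-fold lower (log2 -1.70 ± 0.35 SE, adjusted p = 0.00383). Each of these 4 calls was kept in all 6 fits that left out 1 library.

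Pdia4, a protein disulfide isomerase, differed from the other chaperones by batch. It was at 356, 396 and 408 CPM ex vivo and at 90.03, 86.0 and 402 CPM alone. The 2 cultured libraries of batches mbb336 and mbb339 lay far below the ex vivo ones, and that of batch mbb340 lay among them. The difference was not called (log2 -1.02 ± 0.68 SE, adjusted p = 0.343). With batch as a block it was called (log2 -1.45, adjusted p = 0.0113), as it was without batch mbb340 (log2 -2.08, adjusted p = 0.000154).

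Trib3, a pseudokinase that binds ATF4 and restrains AKT, was at 0.157, 0.759 and 0.4845 CPM ex vivo and at 1.25, 1.76 and 7.40 CPM in macrophages alone. The groups did not overlap, and the rise was 7.18-fold (log2 2.85 ± 0.91 SE, adjusted p = 0.0415). The call was lost without alone replicate 3 (adjusted p = 0.201) and without ex vivo replicate 1, 2 or 3 (0.140, 0.0665 and 0.114), and without batch mbb340 (log2 1.69, adjusted p = 0.148). In that last fit 6 of the 10 were called, and 19.4% of all genes. Ddit3, which encodes the stress factor CHOP, was at 6.98, 4.69 and 11.54 CPM ex vivo and at 10.7, 21.6 and 19.9 CPM alone. The groups overlapped by 1 library and the difference missed the threshold (log2 1.18 ± 0.40 SE, adjusted p = 0.0524). It passed with batch as a block (adjusted p = 0.00644) and without alone replicate 1 (0.0313) or ex vivo replicate 3 (0.0289). Atf4 itself, whose output is largely set by translation, was at 40.0, 40.5 and 38.3 CPM ex vivo and at 38.5, 57.7 and 64.2 CPM alone (log2 0.44 ± 0.26 SE, adjusted p = 0.285).

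Asns was at 0.564, 2.63 and 1.43 CPM ex vivo and at 2.60, 2.20 and 17.4 CPM alone, and the libraries of batches mbb336 and mbb339 lay within or close to the ex vivo range. The difference was not called (log2 2.23 ± 1.06 SE, adjusted p = 0.168). Chac1, which degrades glutathione, had 0, 2 and 0 counts ex vivo and 0, 0 and 27 counts alone. Only 1 cultured library held the transcript, so no fold is given. The ATF4-type genes of macrophages cultured alone were thus highest in batch mbb340 for Trib3, Atf4, Asns and Chac1, and in batch mbb339 for Ddit3.

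The other cultured macrophage groups were compared with the same 3 ex vivo libraries, so these comparisons share their controls and are given side by side. With ATRA, 4 of 5 chaperones were lower and 1 ATF4-type gene, Trib3, was higher (14.9% of all genes called, 6.38% lower and 8.52% higher). Sdf2l1 was 3.28-fold lower (adjusted p = 0.00381), Hspa5 2.60-fold (0.0127), Creld2 2.46-fold (0.0211) and Hsp90b1 1.94-fold (0.0406). Trib3 was 8.14-fold higher (adjusted p = 0.0373). The groups did not overlap for 6 of 10 genes (33.3% of all genes). The Sdf2l1 call was kept in 6 of 6 fits that left out a library. The Hspa5 call was lost without ATRA replicate 1 or 2 or ex vivo replicate 3 (adjusted p 0.0577 to 0.0697). The Hsp90b1 call was lost without any library but ATRA replicate 3 (0.0826 to 0.155), and that of Creld2 without ATRA replicate 1 or 2 or ex vivo replicate 1 or 3 (0.0561 to 0.103). The Trib3 call was lost without ATRA replicate 3 or any ex vivo library (0.0645 to 0.185), and without batch mbb340 (log2 1.83, 0.1325), and Ddit3 was called without ex vivo replicate 3 (log2 1.60, adjusted p = 0.0327) and with batch as a block (0.00728).

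In co-culture macrophages, 1 of 5 chaperones was called lower and 2 of 5 ATF4-type genes higher than ex vivo (14.9% of all genes called, 5.45% lower and 9.47% higher). Sdf2l1, at 99.7, 130 and 118 CPM, was 2.54-fold lower (log2 -1.35 ± 0.34 SE, adjusted p = 0.0154). Trib3, at 6.75, 5.72 and 9.49 CPM, was 14.97-fold higher (log2 3.90 ± 0.94 SE, adjusted p = 0.0121). Asns, at 23.9, 19.2 and 29.5 CPM, was 15.2-fold higher (log2 3.92 ± 1.13 SE, adjusted p = 0.0296). All 3 co-culture libraries lay above all 3 ex vivo libraries for Trib3 and Asns, and below them for Sdf2l1. In all, 7 of the 10 genes had groups that did not overlap, against 40.8% of all genes. The Sdf2l1 call was lost without co-culture replicate 1 or 3 or ex vivo replicate 3 (adjusted p 0.0501 to 0.0724), and the Trib3 call without ex vivo replicate 1 or 3 (0.0551 and 0.0502). The Asns call was kept only without co-culture replicate 2 (0.0529 to 0.108 in the other 5 fits). With batch as a block, 6 of the 10 genes were called, and 21.6% of all genes: Creld2 was also lower (adjusted p = 0.0142), and Atf4 (0.0268) and Chac1 (0.0397) were also higher.

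In transwell macrophages, 2 chaperones were lower than ex vivo and 1 ATF4-type gene was higher (12.9% of all genes called, 5.33% lower and 7.61% higher). Sdf2l1 was 2.74-fold lower (adjusted p = 0.0114, lost without transwell replicate 3 at 0.0597). Creld2 was 2.19-fold lower (adjusted p = 0.0446), a call that was lost whichever of the 6 libraries was left out (0.0535 to 0.150). Trib3 was 10.1-fold higher (adjusted p = 0.0272) and was kept only without transwell replicate 1 (0.0514 to 0.128 in the other 5 fits), and it was lost without batch mbb340 (log2 2.32, 0.074). The groups did not overlap for 7 of 10 genes (35.6% of all genes). With batch as a block, Atf4 (adjusted p = 0.0172) and Asns (0.0239) were also higher, where 19.9% of all genes were called, and Asns was called without transwell replicate 1 as well (0.0468).

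**Figure D2:**
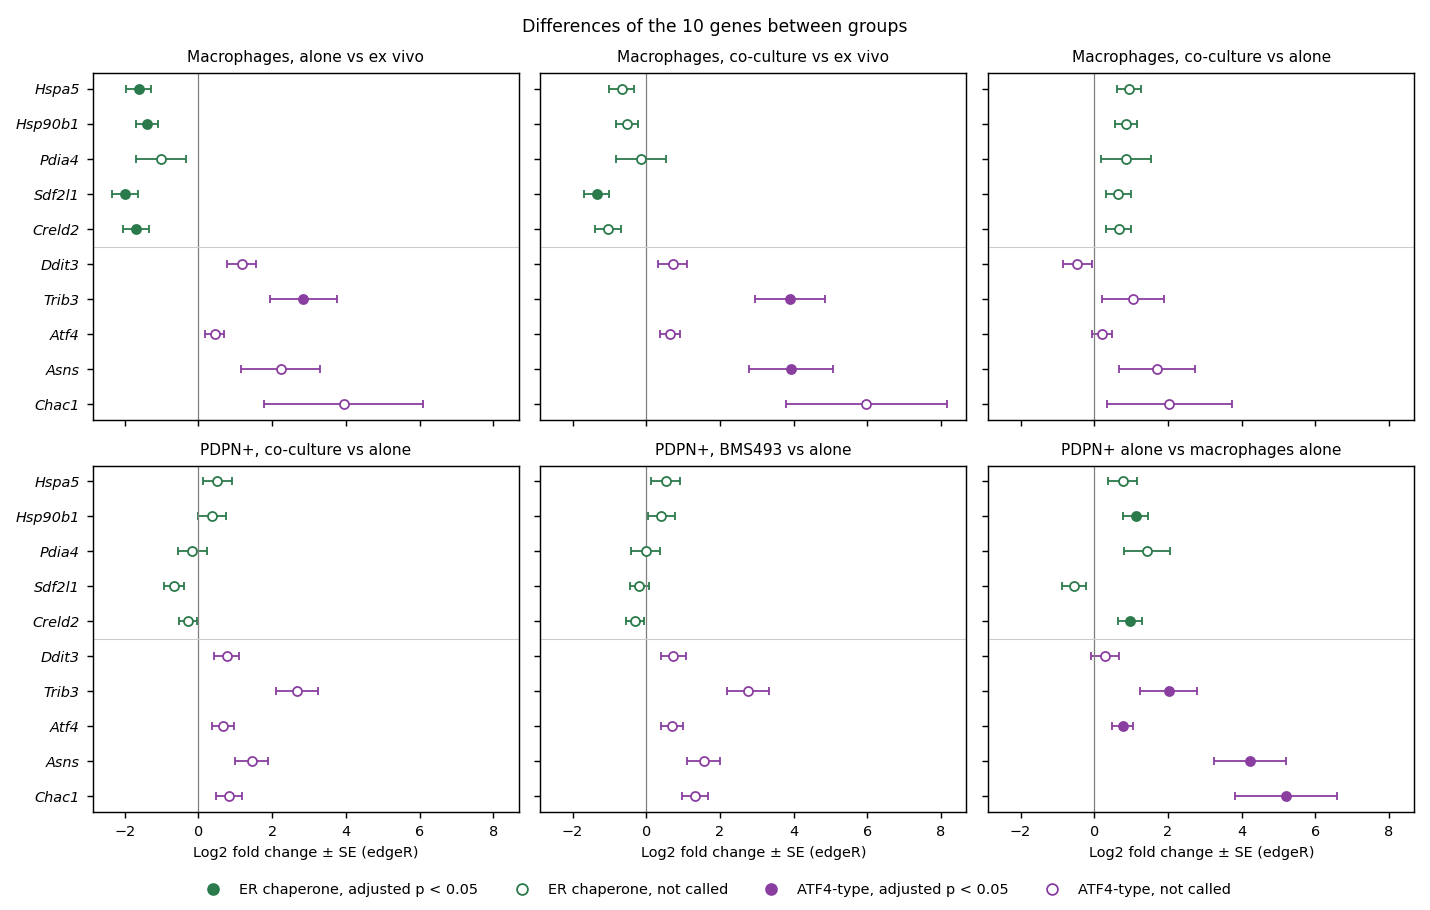
Each panel shows the fitted log2 fold change with its SE for the 10 genes in 1 comparison; filled symbols passed an adjusted p of 0.05, and green marks chaperones and purple ATF4-type genes. In macrophages alone against ex vivo all 5 chaperones lie left of 0 and all 5 ATF4-type genes right of it. Chac1 rests on 2 counts ex vivo, and its log2 change without batch mbb340 (not drawn) was -2.90.

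Among the cultured macrophages, the fitted chaperone levels stood higher in co-culture, transwell and BMS493 cultures than in cells alone, but no difference passed the test. For transwell and BMS493 not every batch went that way. These comparisons share the 3 libraries of cells alone. In co-culture against alone, 0 of the 10 genes were called, with 2 at an unadjusted p under 0.05 and 0 called by DESeq2 (0.698% of all genes called). All 5 chaperones were higher, with a median log2 change of 0.87 against -0.03 over all genes. Hspa5 in co-culture was at 1196, 1665 and 1391 CPM, all above the 500 to 1048 CPM of cells alone (log2 0.94 ± 0.34 SE, adjusted p = 0.239). Hsp90b1 was at 924, 1228 and 1059 CPM in co-culture, also above every library of cells alone (log2 0.87 ± 0.29 SE, adjusted p = 0.211), and it was called without alone replicate 3 (log2 1.29, adjusted p = 0.0406). Sdf2l1 did not overlap either (log2 0.65 ± 0.34 SE, adjusted p = 0.439). Of the 10 genes, 4 did not overlap between the groups, where 14.1% of all genes did not.

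Batch mbb340 bears on this comparison. More of all genes were called without it as well: 5.15% in co-culture, 1.79% in transwell and 7.09% in BMS493 against alone. Without it, 4 of the 10 genes were called in co-culture against alone, all higher: Hspa5 (log2 1.28, adjusted p = 0.0169), Hsp90b1 (1.26, 0.0147), Pdia4 (1.14, 0.015) and Asns (3.08, 0.0336). Without batch mbb340, 3 genes were called in transwell against alone, the chaperones Hspa5 (log2 1.29, adjusted p = 0.0281), Hsp90b1 (1.26, 0.0264) and Pdia4 (1.33, 0.016). In BMS493 against alone, 5 were called without it: Hspa5 (1.31, 0.0112), Hsp90b1 (1.17, 0.0141), Pdia4 (1.30, 0.007), Sdf2l1 (1.05, 0.0378) and Asns (2.89, 0.0342). In the 5 cultured macrophage libraries of batch mbb340, Pdia4 was at 387 to 660 CPM against 86.0 to 276 CPM in the 10 other cultured libraries. Trib3, Atf4 and Asns were also highest in batch mbb340 in 5 of 5 cultured groups, whereas Hspa5 and Hsp90b1 were highest there in 2 of 5. The sum of 4 granulocyte markers was also highest in batch mbb340 in each of the 5 groups, at 45.6 to 122 CPM against 4.47 to 33.8 CPM. Of these markers, S100a9 had 0 counts in macrophages alone and in transwell culture, batch mbb340 included. The part of that batch in the results was not tested beyond these fits.

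Transwell against alone had 0 of 10 genes called (2 at an unadjusted p under 0.05, 0 by DESeq2; 0.0281% of all genes), as did BMS493 against alone (2 and 0; 0.737%). All 5 chaperones were higher in both fits, with medians of 0.57 and 0.62 on the log2 scale against -0.01 and -0.03 over all genes. Batch mbb340 did not follow throughout. BMS493 there lay below cells alone for Hspa5 (897 against 1048 CPM), Hsp90b1 (774 against 877), Sdf2l1 (77.2 against 96.1) and Creld2 (39.8 against 45.0). Pdia4 was higher (450 against 402.5). Transwell there was lower for Pdia4 and Sdf2l1 (log2 -0.06 and -0.05) and higher for Hspa5, Hsp90b1 and Creld2 (0.05, 0.08 and 0.22). Hspa5 was at 1207, 1602 and 1087 CPM in transwell culture and at 1357, 1610 and 897 CPM with BMS493. Transwell macrophages therefore stood above all cells alone for Hspa5, and BMS493 macrophages overlapped them. Groups did not overlap for 2 of 10 genes in transwell (Hspa5 and Hsp90b1; 10.9% of all genes) and for 0 with BMS493 (16.1%). ATRA against alone gave 0 of 10 calls (0 at an unadjusted p under 0.05, 0 by DESeq2; 0.326% of all genes), with Hspa5 at 612, 647 and 1326 CPM (log2 0.24 ± 0.33 SE, adjusted p = 0.975). Co-culture against transwell (0.0394% of all genes called) and BMS493 against co-culture (0.85%) also had 0 calls, 0 at an unadjusted p under 0.05 and 0 by DESeq2. In none of these 3 comparisons did the groups of any of the 10 genes lie apart, against 8.87, 8.97 and 15.5% of all genes in the order given. In the last pair, the largest chaperone differences were 0.34 (Pdia4) and -0.27 (Creld2) on the log2 scale.

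The ATF4-type genes did not move as one in the cultured macrophages. Asns was at 23.9, 19.2 and 29.5 CPM in co-culture, above all 3 libraries of cells alone (log2 1.70 ± 1.03 SE, adjusted p = 0.525). Trib3 overlapped (log2 1.06 ± 0.84 SE, adjusted p = 0.643). Ddit3 lay the other way, at 9.52, 11.04 and 18.5 CPM in co-culture and lower than alone in 3 of 3 batches, within overlapping groups (log2 -0.46 ± 0.39 SE, adjusted p = 0.667). Chac1 had 80, 11 and 38 counts in co-culture, 0, 18 and 32 in transwell culture and 37, 23 and 51 with BMS493. Every co-culture and BMS493 library thus held Chac1 reads, while 2 of 3 libraries of cells alone held none.

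PDPN+ transcripts in the macrophage sorts were set beside these values as shares of the PDPN+ level. In co-culture the batches ranked alike for the fibroblast, Asns and Chac1 shares but not for Trib3. In transwell culture none of these genes ranked so, and with BMS493 only Chac1 did. The fibroblast marker sum of co-culture macrophages was 3.04, 1.11 and 1.89% of that in the PDPN+ libraries of the same batches. Asns stood at 8.57, 4.48 and 6.39% of its PDPN+ level there, and Trib3 at 10.8, 4.45 and 11.2%. In transwell culture the fibroblast share was 0.261, 0.0847 and 0.628% and the Asns share 3.20, 4.92 and 8.10%. The Trib3 share there was 8.44, 18.5 and 12.6%. For Chac1 the shares were 11.6, 2.0 and 5.23% in co-culture and 0.0, 5.97 and 6.74% in transwell culture. With BMS493 the fibroblast share was 2.59, 2.57 and 3.03%, that of Asns 4.63, 4.68 and 8.95%, that of Trib3 6.66, 7.42 and 10.1% and that of Chac1 4.93, 2.41 and 6.03%. The Asns and Trib3 shares were above the fibroblast share in every library, and the Chac1 share was below it in transwell replicate 1 and BMS493 replicate 2. The part of carried-over RNA in the co-culture and BMS493 values was not tested.

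In PDPN+ cells the ATF4-type genes stood higher in co-culture and BMS493 cultures than in cells alone, and the chaperones did not move together. By edgeR, 0 of the 10 genes were called in co-culture against alone, where 0.0% of 19134 genes tested were called (1796 genes at an unadjusted p under 0.05). At an unadjusted p under 0.05 there were 5 of 5 ATF4-type genes and 1 of 5 chaperones, and DESeq2 called Trib3 (adjusted p = 0.000451; 1.81% of all genes by DESeq2). All 5 ATF4-type genes were higher in 3 of 3 batches, with a median log2 change of 0.83 against 0.00 over all genes. For the chaperones the median was -0.16, with 2 higher and 3 lower. Without the libraries that stood apart, edgeR again called 0 of the 10 and 0.0% of all genes, and the ATF4-type changes were 2.79 (Trib3), 1.51 (Asns), 1.22 (Chac1), 1.17 (Ddit3) and 0.96 (Atf4) on the log2 scale.

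Trib3 showed the widest difference. It was at 12.8, 13.8 and 16.1 CPM in PDPN+ cells alone, at 62.6, 129 and 84.8 CPM in co-culture and at 73.8, 107 and 114 CPM with BMS493. Both of the latter groups lay wholly above the cells alone, by a log2 change of 2.68 ± 0.56 SE in co-culture (edgeR adjusted p = 0.161) and 2.75 ± 0.57 SE with BMS493 (0.0895). In transwell culture it was at 14.6, 20.1 and 78.8 CPM, so that 2 libraries lay near the cells alone and that of batch mbb340 within the range of co-culture. Asns was at 139, 136 and 151 CPM alone and at 279, 429 and 461 CPM in co-culture. These groups did not overlap either (log2 1.45 ± 0.45 SE, adjusted p = 0.426). With BMS493 Asns reached 328, 505 and 436 CPM (log2 1.56 ± 0.45 SE, edgeR adjusted p = 0.218, DESeq2 adjusted p = 0.0279).

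Chac1 was at 8.58, 9.79 and 17.1 CPM alone, at 20.8, 21.8 and 21.4 CPM in co-culture and at 23.5, 33.7 and 33.9 CPM with BMS493. Its 3 groups formed a ladder without overlap, with BMS493 on top. Neither step from cells alone was called by edgeR (log2 0.83 ± 0.35 SE, adjusted p = 0.525, and 1.32 ± 0.35 SE, 0.185). DESeq2 called the BMS493 step (adjusted p = 0.0125). Ddit3 was at 19.1, 14.5 and 31.8 CPM alone, at 31.7, 45.0 and 36.0 CPM in co-culture and at 35.6, 36.1 and 39.7 CPM with BMS493. Atf4 was at 75.5, 80.6 and 124 CPM alone, at 118, 160 and 174 CPM in co-culture and at 132, 170 and 164 CPM with BMS493. Their changes in co-culture were 0.76 ± 0.35 and 0.67 ± 0.30 (log2 ± SE, adjusted p = 0.525 for both).

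In PDPN+ cells with BMS493 against cells alone, 0 of 10 genes were called by edgeR (0.24% of all genes; 4 members at an unadjusted p under 0.05) and 3 by DESeq2, namely Trib3, Asns and Chac1 (3.64% of all genes by DESeq2). Groups did not overlap for 6 of 10 genes, the 5 ATF4-type genes (higher) and Creld2 (lower), against 18.3% of all genes. Without PDPN+ alone replicate 3 and transwell replicate 1, Chac1 was called (log2 1.72, adjusted p = 0.0495) and Trib3 was not (2.88, 0.0957), with 0.215% of all genes called; Asns (1.63), Ddit3 (1.15) and Atf4 (0.995) were not called either. BMS493 against co-culture gave 0 calls (0.0157% of all genes; 0 members at an unadjusted p under 0.05, 0 by DESeq2). Groups there did not overlap for Chac1 (log2 0.49 ± 0.35 SE, adjusted p = 1) and Sdf2l1 (0.48 ± 0.26 SE, 1), against 9.11% of all genes.

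The chaperones of PDPN+ cells followed no single direction. Hspa5 was at 1472, 1609 and 680 CPM alone and at 1404, 1941 and 1952 CPM in co-culture, and the low value belongs to the library that stood apart. Without that library and transwell replicate 1 the log2 change was 0.20 in place of 0.51. Sdf2l1 went the other way, from 42.3, 42.9 and 65.0 CPM alone to 36.1, 32.1 and 27.4 CPM in co-culture. The Sdf2l1 groups did not overlap (log2 -0.67 ± 0.26 SE, adjusted p = 0.525, and -0.41 without the 2 libraries). Hsp90b1, Pdia4 and Creld2 changed by 0.36, -0.16 and -0.28 on the log2 scale, with overlapping groups, and by 0.11, -0.51 and -0.07 without the 2 libraries. Of the 10 genes, 4 had groups that did not overlap in this comparison, against 19.0% of all genes.

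Transwell against alone gave 0 of 10 calls in PDPN+ cells (0.0% of all genes, 426 genes at an unadjusted p under 0.05; 1 member at an unadjusted p under 0.05, 0 by DESeq2). The ATF4-type genes were higher by 0.16 to 1.43 on the log2 scale, and the groups overlapped for all 10 genes (5.22% of all genes did not). Without the libraries that stood apart they were higher by 0.61 to 1.92, with 0 called. Co-culture against transwell gave 0 calls as well (0.00523% of all genes; 2 members at an unadjusted p under 0.05, 0 by DESeq2), with groups apart for Sdf2l1 and Chac1 (11.7% of all genes). Asns there was at 87.4, 181 and 392 CPM in transwell culture, and its low value came from the transwell library that stood apart. The ATF4-type genes were higher in co-culture by 0.24 to 1.25 on the log2 scale, and by 0.18 to 0.87 without the 2 libraries, with 0 called in either fit. Other markers moved with these groups. The macrophage marker sum was 1600 to 2320 CPM in co-culture and 1580 to 3650 CPM with BMS493 against 85.1 to 136 CPM alone, and the mesothelial sum was lower in both. The labelled number of cells per library also differed, at 25000, 3730 and 2148 in co-culture and 25000, 22909 and 8229 with BMS493 against 25000 in each library of cells alone. The part of these measures in the ATF4-type values was not tested.

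Between the cell types cultured alone, 6 of 10 genes were higher in PDPN+ cells (38.9% of 20987 genes called, 22.3% higher and 16.6% lower). Of the ATF4-type genes, 4 of 5 were called. Asns, at 139, 136 and 151 CPM against 2.60, 2.20 and 17.4 CPM, was 18.8-fold higher (log2 4.23 ± 0.97 SE, adjusted p = 0.00133). Chac1, at 8.58, 9.79 and 17.1 CPM against 0, 0 and 0.989 CPM, was 36.8-fold higher (log2 5.20 ± 1.39 SE, adjusted p = 0.0046). The groups of 5 of the 10 genes did not overlap, against 44.0% of all genes. The Asns and Chac1 calls were kept in 6 of 6 fits that left out a library. Trib3 was 4.05-fold (adjusted p = 0.0425) and Atf4 1.71-fold higher (0.0361). The Trib3 call was kept only without macrophage alone replicate 3 (0.0639 to 0.165 in the other 5 fits). The Atf4 call was lost without macrophage alone replicate 1 or 2 or PDPN+ alone replicate 3 (0.0594 to 0.209).

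Among the chaperones, Hsp90b1 was 2.18-fold (adjusted p = 0.0136) and Creld2 1.95-fold higher (0.0207) in PDPN+ cells. The Hsp90b1 call was lost without macrophage alone replicate 1 or 2 or PDPN+ alone replicate 2 (0.0624 to 0.0856). That of Creld2 was lost without macrophage alone replicate 1 or 2 or PDPN+ alone replicate 3 (0.0705 to 0.103). Without macrophage alone replicate 3 or PDPN+ alone replicate 3, Hspa5 (adjusted p = 0.0415 and 0.0416) and Pdia4 (0.00487 and 0.044) were called higher too, and Pdia4 passed with batch as a block (0.0128). Without the PDPN+ libraries that stood apart, 5 genes were called (37.0% of all genes): Asns, Chac1 and Hsp90b1 again, and Hspa5 (0.0173) and Pdia4 (0.038), while Creld2 (0.0932), Trib3 (0.0754) and Atf4 (0.197) missed the threshold. Sdf2l1 was the 1 gene of the 10 that stood lower in PDPN+ cells (log2 -0.55 ± 0.32 SE, adjusted p = 0.183).

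The difference between the cell types in their change from alone to co-culture was tested directly. It was called for 0 of the 10 genes (0.986% of 20987 genes; 3 members at an unadjusted p under 0.05, 0 by DESeq2). For the chaperones the change in PDPN+ cells minus that in macrophages was negative in 5 of 5, with a median of -0.96 and the largest for Sdf2l1 (log2 -1.33 ± 0.45 SE, adjusted p = 0.201). For Ddit3 it was positive (1.21 ± 0.54 SE, adjusted p = 0.405). Without the 2 PDPN+ libraries these were -1.08 and 1.61, 0 of the 10 were called, and all 5 chaperone values were again negative. The corresponding test for BMS493 against co-culture also gave 0 (0.00953% of all genes; 0 members at an unadjusted p under 0.05, 0 by DESeq2).

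The contrast of the 2 sets of genes can be read per library as the mean log2(CPM + 1) of the 5 chaperones minus that of the 5 ATF4-type genes. This is a description and no test was made of it. It was 6.77 to 7.13 in macrophages ex vivo and 3.84 to 5.56 in all cultured macrophages. In PDPN+ cells it was 2.39 to 3.47 alone, 2.09 to 3.13 in transwell culture, 1.66 to 2.01 in co-culture and 1.65 to 2.03 with BMS493. Macrophages cultured alone, at 4.43 ± 0.15, and those in co-culture, at 4.57 ± 0.34 (mean ± SD, n = 3), had nearly the same contrast. The chaperone mean was higher in co-culture, at 8.28 ± 0.34 against 7.37 ± 0.65, but libraries overlapped (7.92 to 8.6 against 6.98 to 8.12). The ATF4-type mean was also higher, at 3.71 ± 0.29 against 2.94 ± 0.71, again with overlap (3.42 to 4.0 against 2.37 to 3.73). Of the 5 ATF4-type genes, 4 were fitted higher in co-culture than alone and 1, Ddit3, lower (log2 -0.46). With all batches fitted, no gene of either set was called by edgeR. In PDPN+ cells the chaperone means of the 4 groups were 8.17 to 8.38, taken over genes that changed in opposite directions. The libraries that stood apart were lowest, at 7.89 (alone replicate 3) and 7.65 (transwell replicate 1). Alone replicates 1 and 2 were at 8.35 and 8.41, above the 8.11 to 8.30 of co-culture, and BMS493 was at 8.32 to 8.47. The ATF4-type mean ran from 5.13 ± 0.32 alone to 6.40 ± 0.27 in co-culture and 6.56 ± 0.23 with BMS493.

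**Figure D3:**
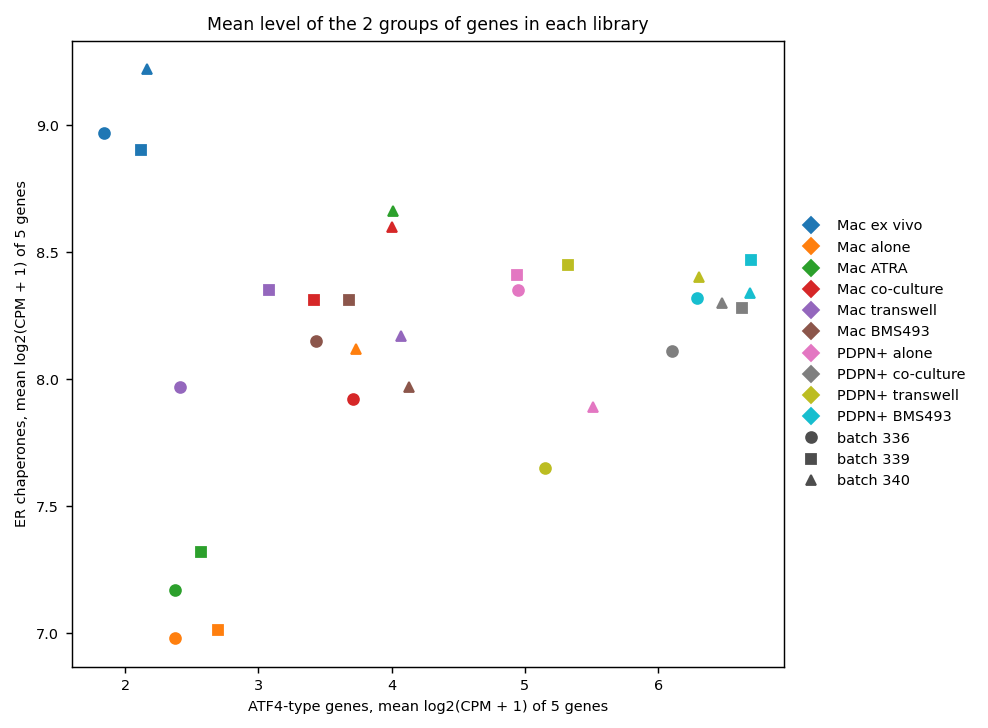
Each point is 1 library, placed by the mean log2(CPM + 1) of the 5 ATF4-type genes (horizontal) and of the 5 chaperones (vertical); colour gives the group and shape the batch. The 3 ex vivo macrophage libraries sit at the top left (chaperone mean 8.90 to 9.22, ATF4-type mean 1.84 to 2.16), and the PDPN+ co-culture and BMS493 libraries at the right (ATF4-type mean 6.10 to 6.70).

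The order of the group means differed between the 2 sets. Hspa5, Sdf2l1 and Creld2 were highest in macrophages ex vivo (2199 ± 592, 286 ± 25.4 and 110 ± 27.5 CPM), and only for Sdf2l1 did that group not overlap the next, macrophages in co-culture at 116 ± 15.2 CPM. Hsp90b1 was highest in PDPN+ cells with BMS493 (1694 ± 164 CPM) and Pdia4 in PDPN+ cells alone (533 ± 243 CPM), both within the range of the group that followed. Macrophages alone were lowest for Hspa5, Hsp90b1, Pdia4 and Creld2, and PDPN+ co-culture cells were lowest for Sdf2l1 (31.9 ± 4.31 CPM). All 5 ATF4-type genes had the 4 PDPN+ groups at the top and macrophages ex vivo at the bottom. For Trib3, Asns and Chac1 the lowest PDPN+ group did not overlap the highest macrophage group, and for Ddit3 and Atf4 neighbouring groups overlapped throughout.

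Likeness was taken as Pearson's r of log2(CPM + 1) over the libraries of 1 cell type, which share batches and depth, and is a description. Over the 18 macrophage libraries the genes most like Hspa5 of 8390 with a mean of at least 10 CPM were Magt1 (0.956), Hsp90b1 (0.953), Txndc5 (0.947), Pdia6 (0.938) and Pdia3 (0.929). Sdf2l1 was at place 16, Creld2 at 21 and Pdia4 at 644. Without batch mbb340 Pdia4 moved to place 11 (r = 0.957, 12 libraries). In the 12 PDPN+ libraries Hspa5 was most like Wdr3 (0.995), Fbxw11 (0.995) and Usp47 (0.994), with Hsp90b1 at place 71 and Sdf2l1 at r = -0.70. Without the 2 libraries that stood apart, it was most like Rae1 (0.977), Mcur1 (0.966) and Wapl (0.966). Hsp90b1 was then at place 604 (0.824) and Sdf2l1 at r = -0.35. Trib3 was most like Asns in macrophages (0.975) and r with Hspa5 was -0.05. Without batch mbb340 Trib3 was most like Tor1aip2 (0.953), Ghitm (0.945) and Fuca2 (0.944), and Asns lay below the cut of 10 CPM. Its r with Atf4 was 0.641 there and 0.826 over all 18 macrophage libraries. Over the 12 PDPN+ libraries Trib3 was most like Cyb5r1 (0.983), Cth (0.976), Pck2 (0.966), Herpud1 (0.964) and Cebpg (0.963). In the 10 without those standing apart, its 8 nearest began with Aldh1l2 (0.979), Cebpg (0.979), Cyb5r1 (0.978), Ccn4 (0.977) and Tagln (0.977). Asns (0.976), Fam129a (0.974) and Ddit3 (0.970) came after them. There Hspa5 and Pdia4 ran opposite to each other (r = -0.67), where they had been at 0.78 over all 12.

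Other genes of the pathways were taken from lists of known members. Of 25 genes for ER folding and quality control, 12 fell and 1 rose in macrophages alone against ex vivo (median log2 -1.01), where 17.8% of all genes were called. Pdia5 fell from 49.4 ± 10.0 to 2.56 ± 1.91 CPM (19.5-fold, adjusted p = 4.06e-05), Pdia6 from 942 ± 116 to 215 ± 97.7 CPM (4.39-fold, 0.0011) and the co-chaperone gene Hyou1 from 44.3 ± 6.88 to 13.2 ± 8.997 CPM (3.37-fold, 0.0124). Ppib, a prolyl isomerase of the ER, fell 3.25-fold (0.00161), and the oxidase gene Ero1lb rose 1.44-fold (0.02), a call kept in 3 of 6 fits that left out a library. In co-culture against alone, 22 of the 25 were higher (median 0.63) and 0 were called by edgeR. At an unadjusted p under 0.05 there were 10. DESeq2 called 3 higher and the fit with batch as a block 4, where 703 and 429 of all genes were called. In PDPN+ co-culture against alone 18 of 25 were higher (median 0.33), with 0 called by edgeR, 4 at an unadjusted p under 0.05 and 1 by DESeq2.

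Of 15 sensors and regulators, 1 rose and 2 fell in macrophages alone against ex vivo, and 1 rose and 4 fell with batch as a block. The first count is a share near that of all genes, 17.8%, and with the block 4297 of 17774 genes were called. Ppp1r15a, which encodes GADD34 and reverses the translation block downstream of PERK and GCN2, rose from 15.8 ± 3.83 to 42.3 ± 2.01 CPM (2.70-fold, adjusted p = 0.000145). Its constitutive relative Ppp1r15b fell 2.37-fold (0.00209), and Xbp1 fell from 405 ± 89.4 to 205 ± 48.4 CPM (1.97-fold, 0.00283). Each was kept in 6 of 6 fits that left out a library.

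Of 10 genes for amino acid synthesis, 3 fell and 0 rose in macrophages alone against ex vivo (17.8% of all genes called). They were Psat1 of serine synthesis (4.95-fold, adjusted p = 0.0321, kept in 3 of 6 fits that left out a library), Aldh18a1 of proline synthesis (4.62-fold, 0.0033) and mitochondrial Shmt2 (2.44-fold, 0.00104). Aldh18a1 was 4.72-fold higher in co-culture than alone (25.2 ± 1.73 against 5.21 ± 2.21 CPM, adjusted p = 0.0317) and 4.5-fold higher with BMS493 (0.0388), calls kept in 2 and 1 of 6 such fits and lost, among others, without alone replicate 2 (0.189 and 0.172). In these comparisons 2 of the 10 rose (0.698 and 0.737% of all genes called). With batch as a block 4 and 5 rose, where 429 and 412 of 17774 genes were called. In PDPN+ cells alone against macrophages alone, 9 of 10 were called higher, also without the PDPN+ libraries that stood apart (38.9% and 37.0% of all genes). Phgdh, the enzyme that opens serine synthesis, was at 201 ± 11.52 against 1.94 ± 1.72 CPM (102-fold, adjusted p = 2.86e-07) and Pycr1 at 33.3 ± 2.72 against 0.481 ± 0.101 CPM (66.5-fold, 7.00e-10). Aldh1l2, at 26.3 ± 14.6 CPM, had 0 counts in the macrophages and was at least 894-fold higher against a floor of 3 counts over that group.

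In PDPN+ co-culture against alone every member of 3 lists was higher, with 0 called by edgeR in each. These were 10 of 10 synthesis genes (median log2 1.5), 9 of 9 transporters (1.45) and 12 of 12 cytosolic tRNA synthetases (1.10). At an unadjusted p under 0.05 there were 8, 7 and 8 of them, and DESeq2 called 2, 2 and 0. With BMS493 against alone the same 3 counts were again complete, with medians of 1.75, 1.67 and 1.24, and edgeR again called 0, with 10, 7 and 7 at an unadjusted p under 0.05 and 4, 4 and 0 called by DESeq2. Without the 2 PDPN+ libraries that stood apart, the counts called were also 0 in both comparisons. In macrophages alone against ex vivo 3 of the 12 synthetases fell (Wars 2.65-fold, Gars 2.32-fold and Lars 2.08-fold, adjusted p = 0.0188, 0.000828 and 0.00387) and Nars rose (1.64-fold, 0.00149), against 17.8% of all genes called. With batch as a block 6 fell and 1 rose, where 4297 of 17774 genes were called. The Wars call was kept in 3 of 6 fits that left out a library and the others in 6.

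**Figure D4:**
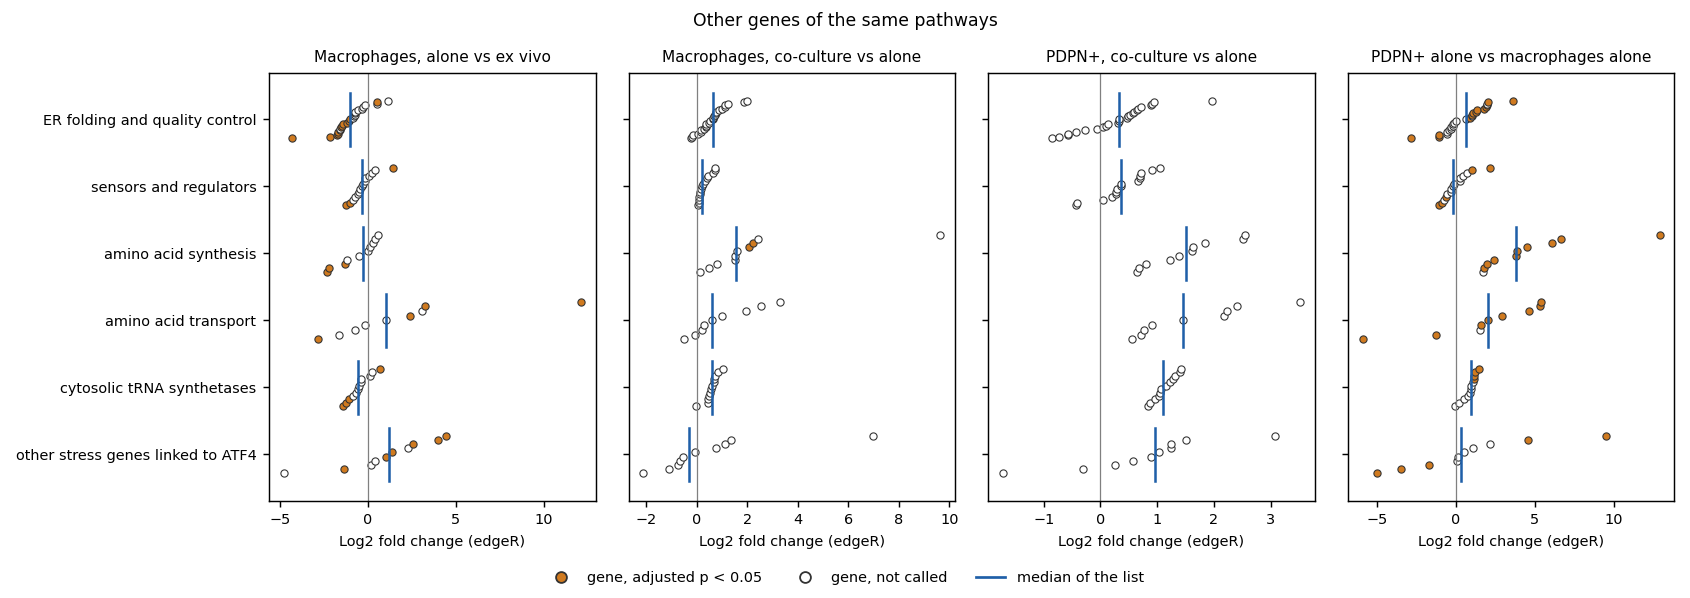
Each panel shows 1 comparison, with the fitted log2 fold change of each gene along the horizontal axis (scales differ between panels) and the pathway lists as rows; filled points passed an adjusted p of 0.05 and the blue line is the list's median. The median of the ER folding list is at -1.01 for macrophages alone against ex vivo, and those of amino acid synthesis and tRNA synthetases are at 1.5 and 1.1 for PDPN+ co-culture against alone.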

How the data were processed

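The deposited count column holds, per the file headers, reads uniquely aligning to each gene model, and the deposited RPKM column was adjusted by size factors by the authors. GSNAP and GRCm38 are named in the submitters' processing notes, whereas aligner version, annotation, strand setting and filters are not stated. Identifiers lacking a symbol (192) took 0.0358% of counts. Groups follow the titles, which in batch mbb336 go against the cell types that source names give for the co-culture macrophages and PDPN+ cells; the macrophage and fibroblast marker sums go with the titles.

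Counts were tested with edgeR 4.0.16 (R 4.3.3, limma 3.58.1) by the quasi-likelihood test after TMM scaling and filterByExpr, in 1 fit for 18 macrophage libraries (17774 genes), 1 for 12 PDPN+ libraries (19134) and 1 for all 30 (20987). SE is the absolute log2 fold change divided by the square root of F. CPM are TMM-scaled over all 30 libraries. Beyond the 10 members, up to 4 called genes per list, direction and comparison could be named, the largest changes with at least 10 CPM in the higher group and no overlap; all lists were fully tested. On simulated counts with known changes, 50% of 4-fold and 70% of 8-fold changes were recovered for macrophages alone against ex vivo, and 16% and 40% for PDPN+ co-culture against alone. The labelled batch is the replicate number, which pairs libraries: deviations from group means correlated between same-numbered libraries with a median r of 0.414 in macrophages (35 of 45 pairs over 0.1) and 0.254 in PDPN+ cells (15 of 18). Alternatives were DESeq2 1.42.0, RLE scaling, no low count filter, batch as a block, only the groups compared, no batch mbb340 and each replicate left out; leaving out the 2 PDPN+ libraries that stood apart was added after seeing the data. The members and lists were chosen with earlier results of these data known. Counting floors cover counting error only.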

Additional observations from a re-analysis of the deposited data

How the results depend on the processing

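Of the 10 members, the number called against ex vivo moved past 1.5 times in 3 of 4 comparisons. In the other, cells alone, it was 5, and 7 with the replicate block, 6 by DESeq2 and 6 without batch mbb340. For ATRA it was 5, and 1 with only the groups compared. For co-culture it was 3, and 5 by DESeq2, 6 with the replicate block, 5 with only the groups compared and 5 without batch mbb340. For transwell culture it was 3, and 5 with the replicate block. Against macrophages alone, co-culture rose from 0 to 4, transwell from 0 to 3 and BMS493 from 0 to 5 without batch mbb340. In PDPN+ cells, co-culture against alone went from 0 to 1 by DESeq2 and to 1 with only the groups compared; BMS493 against alone went from 0 to 3 by DESeq2, and to 1 with only the groups compared or without the 2 libraries that stood apart. PDPN+ alone against macrophages alone fell from 6 to 2 with only the groups compared. The block changed no other count of members past 1.5 times. The cause of these shifts was not tested. Leaving out each replicate gave 4 to 6 members for macrophages alone against ex vivo, 2 to 4 for ATRA, 0 to 3 for co-culture and 0 to 3 for transwell culture against ex vivo, 0 to 1 for co-culture against alone, 2 to 8 for PDPN+ against macrophages alone, and 0 in every other comparison. In co-culture against ex vivo, Pdia4 ran from -0.894 to 0.188 (log2) with 1 library left out and changed sign without co-culture replicate 1 (0.188) or 2 (0.14). RLE scaling changed the side of the threshold for no member.

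Over all genes, the counts called moved as follows: ATRA against alone 58 (328 by DESeq2, 143 with the block, 3 with only the groups compared, 106 without batch mbb340), macrophage co-culture against alone 124 (703, 429, 1 and 930), BMS493 against alone 131 (704, 412 and, without batch mbb340, 1279), BMS493 against co-culture 151 (442, 320, 75 and 314), transwell against alone 5 (259, 23, 0 and 323), co-culture against transwell 7 (150, 33 and 0; 15 with no filter). In PDPN+ cells it was 0 in co-culture against alone (346 by DESeq2, 34 with only the groups compared, 31 with no filter), 46 in BMS493 against alone (697, 15 and 78; 26 without batch mbb340), 0 in transwell against alone (16 by DESeq2), 1 in co-culture against transwell (137) and 3 in BMS493 against co-culture (112). It was 3164 in macrophages alone against ex vivo (1952 with only the groups compared), 2300 in transwell against ex vivo (3534 with the block), 8159 between the cell types (5319 with only the groups compared), 207 for the difference in the co-culture effect (688 by DESeq2, 377 with the block, 323 without batch mbb340) and 2 for that in the BMS493 effect (56, 7 and 24). Leaving out each replicate gave 17 to 73 for ATRA against alone, 5 to 268 for macrophage co-culture, 1 to 43 for transwell and 12 to 243 for BMS493 against alone, 43 to 138 for BMS493 against co-culture, 0 to 14 for co-culture against transwell, 0 to 27 for PDPN+ BMS493 against alone, 0 to 5 for PDPN+ co-culture against transwell, 0 to 18 for PDPN+ BMS493 against co-culture, 121 to 252 for the difference in the co-culture effect and 1 to 7 for that in the BMS493 effect. Against ex vivo the ranges were 2107 to 2984 for cells alone, 1626 to 2581 for ATRA, 1581 to 1922 for co-culture and 1359 to 1894 for transwell culture. Precision is limited by 3 libraries a group and, for Chac1 in macrophages, by 0 to 80 counts a library.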

Other observations

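Of 9 amino acid transporters, 3 rose and 1 fell in macrophages alone against ex vivo, and 2 rose and 3 fell without batch mbb340 (17.8% and 19.4% of all genes called). Slc7a11, the cystine transporter, had 8 counts in all in the macrophages ex vivo and was at 21.2, 71.0 and 911 CPM in macrophages alone, with batch mbb340 far above the others (adjusted p = 0.00857, edgeR). Its partner chain Slc3a2 rose 5.37-fold (adjusted p = 0.00759). In co-culture macrophages Slc7a11 was at 30.8, 45.7 and 1073 CPM, again highest in batch mbb340, and in PDPN+ cells alone at 2.77, 8.89 and 5.04 CPM. Of 10 other stress genes linked to ATF4, 5 rose and 1 fell in macrophages alone against ex vivo. Gdf15, a secreted stress factor, rose from 1.76 ± 0.551 to 38.1 ± 28.7 CPM (22.0-fold, adjusted p = 0.000404), Atf3 2.61-fold (0.00232) and Sesn2 2.05-fold (0.0179, kept in 3 of 6 fits that left out a library). Nupr1 fell 2.50-fold (0.0157, kept in 3 of 6). Between the cell types cultured alone, Atf3 (32.8-fold, adjusted p = 5.79e-09) and Gdf15 (11.2-fold, 0.000856) were lower in PDPN+ cells, where Asns, Trib3 and Chac1 were higher.

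In macrophages, Atf3 was also 2.34-fold higher with BMS493 than in co-culture (106 ± 26.7 against 44.3 ± 3.66 CPM, adjusted p = 0.044), a call kept in 1 of 6 fits that left out a library.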
